A study of Homo sapiens with 2 samples.

Results

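The 39 genes described here lie within 1 interval of the long arm of chromosome 9, from PCSK5 in 9q21 to SPTLC1 in 9q22, and many of them were higher in cabazitaxel-resistant PC3CR cells than in parental PC3 cells. They were chosen by their position within a stretch whose genes had shown raised values in PC3CR, so the differences between the lines given below describe the stretch and are no test of it. All 39 were measured, out of 19775 genes on the arrays and 776 on chromosome 9. PC3 is a prostate cancer cell line. PC3CR is the subline derived from it, passaged for 18 months with cabazitaxel (CBZ), a taxane that stabilises microtubules, and then kept for 3 months in medium free of the drug before it was profiled. Both lines were grown in RPMI-1640 with fetal bovine serum, and each was hybridised to 1 array. With 1 array per line there is no replicate check of any value, the precision of each difference is set by the arrays being so few, and no p-value can be given.

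The values are log2 signals that the authors made with the robust multichip average (RMA), 1 per probe set. A gene with several probe sets is represented by the one with the highest mean of both arrays, and a difference is always PC3CR minus PC3 on the log2 scale, so that 1 stands for 2-fold. The median difference over all genes was -0.04. The epithelial keratin gene KRT8 was at 9.72 in PC3 and 9.79 in PC3CR and KRT18 was at 11.69 and 12.36, whereas the epithelial adhesion gene EPCAM was at 11.07 and 8.57. KLK3, which encodes prostate-specific antigen, was at 8.04 and 8.08.

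Genes that are neighbours on a chromosome are gained and lost together when a piece of the chromosome changes in copy number, and they can share a chromatin domain, but they need not have related functions. The stretch from PCSK5 to SPTLC1 is of this mixed kind. It holds proteases and Golgi enzymes, the G protein alpha subunits of the Gq class, which couple receptors to phospholipase C, the Groucho corepressors TLE1 and TLE4, a tubulin deglutamylase, receptors of nerve and developmental growth factors, and enzymes of vitamin, leucine and sphingolipid metabolism. The arrays measured RNA alone, and the copy number of the interval was not analysed here.

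Of the 39 genes, 14 were at least 2-fold higher in PC3CR, against 9.84% of all genes, and 0 were at least 2-fold lower, against 6.72%. The other 25 lay within 2-fold. Of the 39 differences 33 were above 0, against 45.2% of those of all genes. The median was 0.53, so the list was not raised throughout. At 1.5-fold, 18 were higher and 1, TLE1, was lower, against 18% and 13.5% of all genes. At 3-fold, 10 were higher and 0 lower, against 3.82% and 3.1%. At 2-fold on the mean of the probe sets of each gene, 13 were higher and 0 lower, against 6.92% and 5.43%. The smallest difference past 2-fold was that of AUH at 1.25, and the largest within it was that of NAA35 at 0.94. The 3 largest were CTSLP8 at 3.82, PCSK5 at 3.47 and CTSL at 3.16. GNAQ followed at 2.10, SEMA4D at 1.83 and DAPK1 at 1.76.

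Promoters are shown for genes toward both ends of this range: the 3 protein-coding genes with the largest differences among those with a promoter in the RefSeq table, and TLE1, the gene with the lowest difference by its brightest probe set. By the mean of probe sets TLE1 was at -0.03 and NTRK2, at -0.36, was lowest. Each runs 5′ to 3′ from 250 bases before to 50 bases after the start of the gene, on GRCh38.p14, and is given with its strand. Capitals mark matches on either strand to the GC box, with the letters GGGCGG. They also mark the CCAAT box, named for its letters, and the E-box with the letters CACGTG. The TATA box was searched as TATAAA. The cyclic AMP response element was searched as TGACGTCA. The promoters are PCSK5 at chr9:75890423-75890722 on the plus strand, CTSL at chr9:87725869-87726168 on the plus strand, SEMA4D at chr9:89495607-89495906 on the minus strand and TLE1 at chr9:81689498-81689797 on the minus strand.
PCSK5: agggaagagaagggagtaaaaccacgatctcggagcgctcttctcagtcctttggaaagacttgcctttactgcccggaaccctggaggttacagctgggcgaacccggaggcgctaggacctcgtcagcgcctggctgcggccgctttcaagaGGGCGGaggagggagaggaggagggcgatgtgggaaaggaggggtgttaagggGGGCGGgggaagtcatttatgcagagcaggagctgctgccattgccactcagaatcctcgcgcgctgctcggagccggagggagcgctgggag
CTSL: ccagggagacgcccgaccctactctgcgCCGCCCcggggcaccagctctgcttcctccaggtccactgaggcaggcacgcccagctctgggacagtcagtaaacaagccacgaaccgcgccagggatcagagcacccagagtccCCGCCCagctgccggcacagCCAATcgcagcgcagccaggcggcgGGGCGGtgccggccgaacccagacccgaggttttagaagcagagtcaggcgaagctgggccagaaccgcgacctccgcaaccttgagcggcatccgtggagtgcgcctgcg
SEMA4D: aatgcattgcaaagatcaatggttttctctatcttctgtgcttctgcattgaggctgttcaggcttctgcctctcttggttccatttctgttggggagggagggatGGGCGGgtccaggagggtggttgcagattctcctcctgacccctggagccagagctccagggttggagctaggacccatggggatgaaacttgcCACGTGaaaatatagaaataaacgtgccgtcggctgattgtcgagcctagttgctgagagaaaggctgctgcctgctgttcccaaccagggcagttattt
TLE1: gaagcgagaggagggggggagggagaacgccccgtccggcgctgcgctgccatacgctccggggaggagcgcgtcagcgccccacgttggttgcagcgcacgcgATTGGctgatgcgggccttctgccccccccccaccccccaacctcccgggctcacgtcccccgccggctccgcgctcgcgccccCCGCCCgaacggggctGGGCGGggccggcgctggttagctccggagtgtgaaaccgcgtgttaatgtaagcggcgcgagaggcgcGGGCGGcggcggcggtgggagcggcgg

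CTSL and TLE1 both held 3 GC boxes and 1 CCAAT box. PCSK5 held 2 GC boxes, and SEMA4D held 1 GC box and 1 E-box. The GC content was 62.3% for PCSK5, 69.0% for CTSL and 76.0% for TLE1, and SEMA4D was lower at 52.3%. SEMA4D also had few CpG dinucleotides, with an observed to expected ratio of 0.299, compared with 0.761 for CTSL and 1.02 for TLE1. Of the 39 genes, 33 had an entry in the promoter table, and the first entry of each was read. The median GC content was 65% for these 33 and 58.3% for the first promoters of all 27305 genes there. The shares that follow were not adjusted for this. A GC box was present in 24 of these 33 (72.7%), compared with 44.6% of those first promoters and 45.0% of all 35116 promoters of the table. It was present in 8 of 10 promoters of genes past 2-fold and in 12 of 14 of genes that lay within 2-fold and had a mean signal over both arrays at or above 6.02, the median of all genes. Among members below that signal, whether past 2-fold or not, it was present in 6 of 12. A CCAAT box was found in 12 of 33 (36.4%, and 34.6% of all promoters), and an E-box in 3 of 33 (9.09%, and 7.26%). No TATA box or cyclic AMP response element was found in the 33, where 11.5% and 1.85% of all promoters hold one. A match of letters is not evidence that a factor binds there.

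All 5 genes placed under secretion, the Golgi and the lysosome were past 2-fold, against 9.84% of all genes, with a median of 3.16. The group was drawn up with earlier results of these data known, so the count is no test of it. CTSLP8, a pseudogene, is among the 5, and its probe set may also bind CTSL transcripts. The CTSL signal may therefore enter both the count and the median more than once. GOLM1 averaged 0.94 over its 2 probe sets, which is within 2-fold. PCSK5, a proprotein convertase that cleaves precursor proteins in the secretory pathway, was at 3.20 in PC3 and 6.67 in PC3CR. Its value in PC3 was dim, so the size of the difference is uncertain, and all 3 of its probe sets were higher, by 2.44 to 3.47. CTSL, the lysosomal cysteine protease cathepsin L, was already bright in PC3, at 10.10, and was at 13.27 in PC3CR, an 8.96-fold difference. CTSLP8 is a pseudogene of cathepsin L, at 4.08 in PC3 and 7.90 in PC3CR. CTSL and CTSLP8 had 1 probe set each, and the name of the CTSLP8 probe set marks it as one that may bind related transcripts, so that its value and that of CTSL are uncertain as separate measurements. GOLM1, a Golgi membrane protein known as a prostate cancer marker, was at 7.85 and 9.49, a difference of 1.64. GCNT1, which builds the branched core of mucin-type glycans, was at 5.01 and 6.59, a difference of 1.58. The second probe sets of GOLM1 and GCNT1 differed by 0.25 and 0.64.

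**Figure D1:**
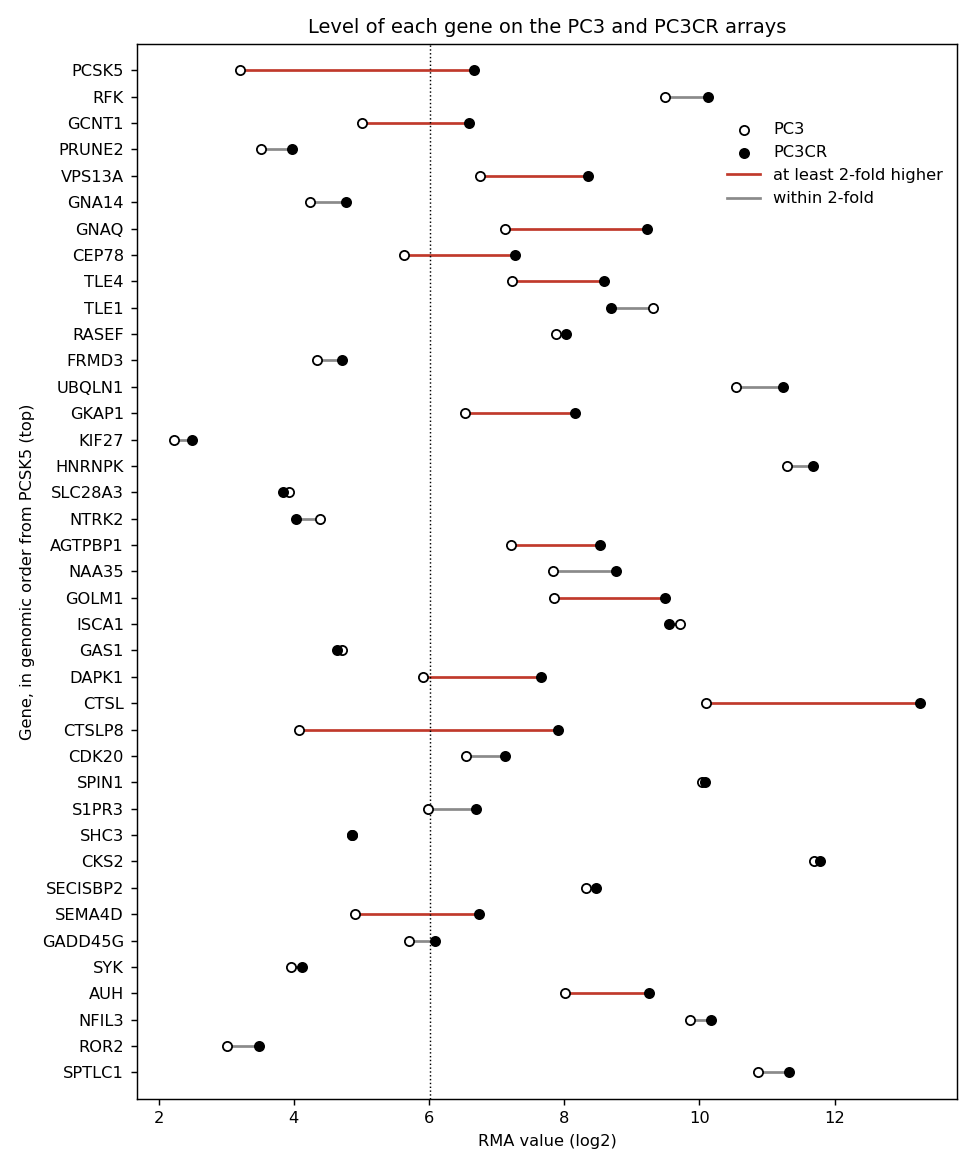
RMA value (log2, horizontal axis) of the 39 genes in genomic order from PCSK5 at the top to SPTLC1 at the bottom, with 1 array per cell line. Open circles are PC3 and filled circles PC3CR, red lines join the values of the 14 genes at least 2-fold higher in PC3CR, and the dotted line is the median over all genes of the mean of both arrays (6.02). CTSL has the highest value in PC3CR, at 13.27, and several genes at the left of the dotted line hardly differ between the lines.

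Of the 4 genes placed under G proteins and small GTPases, 2 were past 2-fold, GNAQ and GKAP1, against 9.84% of all genes. All 4 were above 0, against 45.2% of all genes. GNAQ, which encodes the Gq alpha subunit, was at 7.12 in PC3 and 9.22 in PC3CR, or 4.28-fold higher. Of its 5 probe sets, 4 differed by 2.10 to 2.20 and the other by 0.35. GNA14, its close relative and neighbour in the list, was at 4.24 and 4.77, a difference of 0.53, and its second probe set differed by -0.12. GKAP1 was placed in this group but is neither a G protein nor a GTPase. It is an anchoring protein of the cyclic GMP-dependent kinase, and was at 6.53 and 8.16, a difference of 1.63. RASEF, an atypical Rab GTPase, depended on the probe set. The brightest one was at 7.88 and 8.03, a difference of 0.15, and the other 4 differed by 0.34, 1.67, 2.75 and 0.33.

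In the group of transcription and chromatin genes, the Groucho corepressors differed from each other. TLE4 was at 7.23 in PC3 and 8.59 in PC3CR, which differ by 1.36, and its 5 probe sets differed by 0.32 to 2.43. TLE1 was at 9.31 and 8.69, a difference of -0.63, the lowest of the 39 genes. Another bright probe set of TLE1 was at 8.41 and 8.67, a difference of 0.26, so that the direction for TLE1 is not settled. NFIL3, a basic leucine zipper repressor, differed by 0.30, and SPIN1, a reader of methylated histone H3, by 0.04 on a high signal of 10.04 and 10.08.

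Of the 6 genes of protein and RNA handling, 2 were past 2-fold, against 9.84% of all genes. All 6 were above 0, against 45.2% of all genes. VPS13A, a lipid transfer protein between organelles, was at 6.76 and 8.36, a difference of 1.60. Its 6 probe sets were all higher in PC3CR, by 0.24 to 1.60. AGTPBP1, which removes glutamates from the tails of tubulin, was at 7.21 and 8.54, a difference of 1.33, and its second probe set differed by 0.94. NAA35, an auxiliary subunit of the NatC N-terminal acetyltransferase, was at 7.83 and 8.77, a difference of 0.94. UBQLN1, which carries ubiquitinated proteins to the proteasome, differed by 0.69, although 1 of its 3 probe sets differed by -0.54. The RNA-binding protein gene HNRNPK differed by 0.39 and SECISBP2, which recruits the machinery for selenocysteine, by 0.16.

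Of the 3 genes of apoptosis and scaffolds, 1 was past 2-fold, against 9.84% of all genes. DAPK1, a calmodulin-regulated kinase that promotes cell death, was at 5.91 in PC3 and 7.66 in PC3CR, which differ by 1.76. A second probe set of DAPK1 was at 3.01 and 3.35. PRUNE2 and FRMD3 were dim on both arrays, below 5 on this scale, and differed by 0.47 and 0.37.

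Of the 5 genes of the cell cycle, centrosome and cilium, CEP78 alone was past 2-fold, against 9.84% of all genes. CEP78, a centrosomal protein, was at 5.63 in PC3 and 7.27 in PC3CR, which differ by 1.64, and its 3 probe sets differed by 1.62 to 2.25. CDK20, a cell cycle-related kinase, differed by 0.58. GADD45G, a stress-inducible growth arrest gene, differed by 0.38 and KIF27, a kinesin of the cilium, by 0.26 at a signal below 3 on both arrays. CKS2, a small subunit of cyclin-dependent kinases, was at 11.70 and 11.79, a difference of 0.09.

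Among the 5 genes of metabolism and transport, 1 was past 2-fold, against 9.84% of all genes. This was AUH, a mitochondrial enzyme of leucine breakdown, at 8.01 and 9.26. RFK, the riboflavin kinase that makes flavin mononucleotide, was at 9.49 and 10.13, a difference of 0.64 that its second probe set also gave (0.60). SPTLC1, a subunit of serine palmitoyltransferase, the first enzyme of sphingolipid synthesis, was at 10.87 and 11.32, a difference of 0.45, and another of its 3 probe sets by 1.02. ISCA1, a mitochondrial iron-sulfur assembly protein, was at 9.71 and 9.55, and its 3 probe sets differed by -0.16 to -0.01. SLC28A3, a nucleoside transporter, was dim, at 3.93 and 3.83.

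The receptors, ligands and adaptors were the group with the most dim genes. Of 7, SEMA4D alone was past 2-fold, against 9.84% of all genes. SEMA4D, a semaphorin that binds plexin B1, was at 4.91 in PC3 and 6.74 in PC3CR, and its 2 probe sets differed by 1.83 and 1.14. S1PR3, a receptor of sphingosine 1-phosphate, was at 5.98 and 6.70, a difference of 0.72, but its second probe set differed by -0.09. NTRK2, the receptor TrkB of brain-derived neurotrophic factor, was at 4.39 and 4.03, and 5 of its 6 probe sets were lower in PC3CR. ROR2, a receptor of Wnt5a, was at 3.01 and 3.49, and the tyrosine kinase gene SYK was at 3.96 and 4.12. The Hedgehog coreceptor gene GAS1 was at 4.71 and 4.64, although 1 of its 3 probe sets differed by 1.04. SHC3, a neuronal adaptor, had the same value of 4.86 on both arrays.

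The counts also differed with the level of the gene, as they did over all genes. Of the 24 members whose mean signal over both arrays was at or above 6.02, 10 were at least 2-fold higher, against 14.3% of all genes at that level. Of these 24, 22 were above 0, against 54.7% of all genes at that level, and their median was 0.71, compared with 0.09. Of the 10 members between 4.21 and 6.02, 4 were at least 2-fold higher, namely CTSLP8, PCSK5, SEMA4D and GCNT1, against 9.14% of all genes at that level. Of the 5 below 4.21, 0 were, where the share over all genes is 1.7%, and their differences lay between -0.10 and 0.48. These were PRUNE2, KIF27, SLC28A3, SYK and ROR2.

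Probe sets of 1 gene share its RNA and are no replicates, but they show how far a value rests on the choice of probe set. The 39 genes had 101 probe sets, of which 31 were at least 2-fold higher, against 8.94% of all probe sets with 1 gene symbol, 80 were above 0 and 0 were at least 2-fold lower. Of the 30 genes with several probe sets, 19 had all of them above 0, 3 had none above 0 (SLC28A3, ISCA1 and SHC3) and 8 had some above 0 and some at or below it. All probe sets were past 2-fold for 3 of the 11 genes past 2-fold that had several, PCSK5, CEP78 and SEMA4D. Conversely, RASEF, GAS1 and SPTLC1 lay within 2-fold by their brightest probe set and had another past 2-fold.

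**Figure D2:**
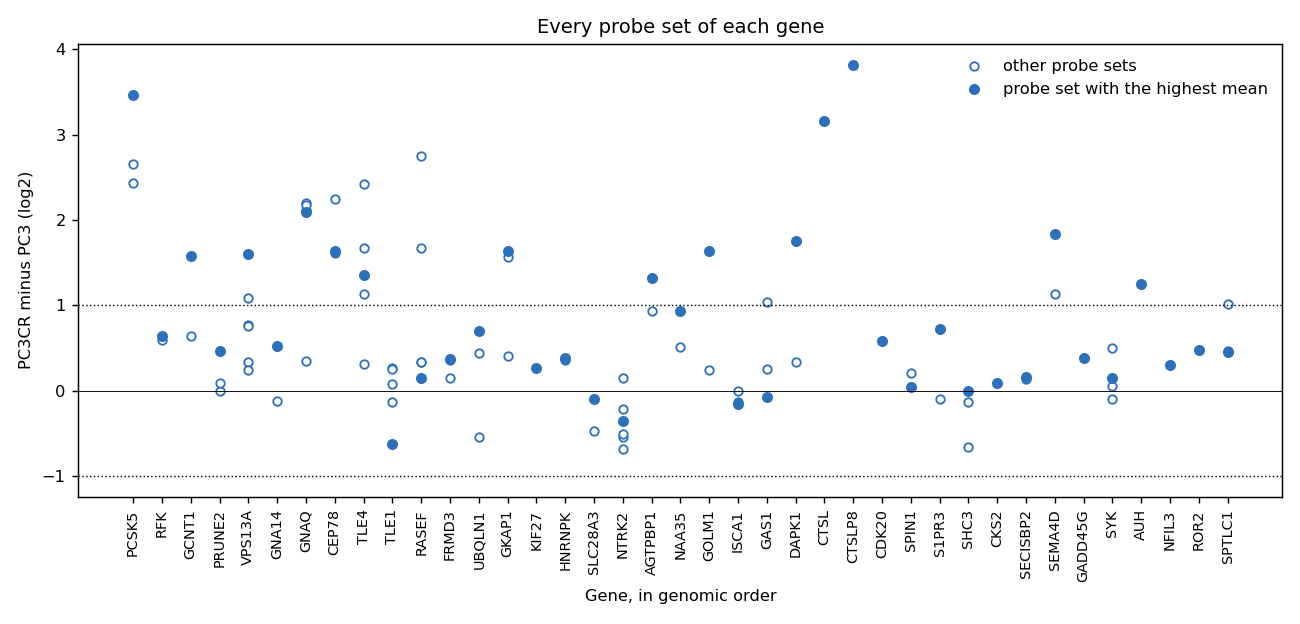
PC3CR minus PC3 (log2, vertical axis) for each of the 101 probe sets of the 39 genes, in genomic order, with 1 array per cell line. Filled points are the probe sets with the highest mean, open points the other probe sets of the same gene, and dotted lines mark 2-fold. The 4 agreeing probe sets of GNAQ lie between 2.10 and 2.20, whereas those of RASEF spread from 0.15 to 2.75.

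Between PCSK5 and SPTLC1, 67 genes were measured, and 28 of them were not among the 39. Of these 28, 3 were at least 2-fold higher, a share near the 9.84% of all genes, and 0 were lower. RMI1, of the complex that dissolves recombination intermediates, was at 7.16 in PC3 and 8.76 in PC3CR, which differ by 1.60. PSAT1, the aminotransferase of serine synthesis, was at 11.002 and 12.10, a difference of 1.10, and LINC03026, a long noncoding RNA, was at 4.04 and 5.32. Of the 28, 6 had a mean signal at or above 6.02, and all 6 were above 0, with a median of 0.67. Besides RMI1 and PSAT1 these were TUT7, a terminal uridylyltransferase, at 0.57, IDNK at 0.30, QNG1 at 0.33 and the pseudogene LOC389765 at 0.78. The other 22 were dimmer. The 19 noncoding RNAs and pseudogenes among the 28 had a median of 0.06.

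The stretch had no sharp start. On the side of PCSK5, the 5 nearest measured genes were OSTF1 at 0.80, NMRK1 at 0.66, CARNMT1 at 0.44, the antisense RNA CARNMT1-AS1 at 0.32 and C9orf40, from 7.52 to 8.93, at 1.41. The nearest 10 had a median of 0.38, and the 5 of them with a mean signal at or above 6.02 all lay between 0.44 and 1.41. Further toward the centromere many genes were also above 0. From PGM5 to the gene before PCSK5, 39 genes were measured and 15 had a mean signal at or above 6.02. Of these 15, 13 were above 0 and 5 at least 2-fold higher, against 54.7% and 14.3% of all genes at that level. Their median was 0.80, while PGM5 itself was at 9.96 in PC3 and 4.30 in PC3CR. On the side of SPTLC1, the 5 nearest were LINC00475 at -0.12, IARS1 at 0.11, NOL8 at -0.41, OGN at -0.08 and OMD at 0.00. OGN and OMD were dim, below 2.5 on both arrays, whereas IARS1 was at 11.41 and 11.51 and NOL8 at 8.78 and 8.37. The nearest 10 on this side had a median of 0.00, with 0 at least 2-fold higher, against 9.84% of all genes. Only 4 of these 10 had a mean signal at or above 6.02. They lay between -0.41 and 0.62, with 3 above 0 and a median of 0.08.

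A running median over 7 neighbouring genes was taken along chromosome 9, using the 417 genes that reached 6.37 on at least 1 array, 6.37 being the median over genes of the brighter value. This floor was passed by 28 of the 39 members, 7 of them through PC3CR alone and 0 through PC3 alone, so that the running median is biased upward where these lie. It was 1.60 at GCNT1 and VPS13A and 1.64 at TUT7 and DAPK1. Between CEP78 and TUT7 it ranged from 0.39, at UBQLN1 and GKAP1, to 1.36 at PSAT1, and 6 of the 14 genes there were at least 2-fold higher. Over all chromosomes, 1591 of the 9888 genes that pass the same floor were at least 2-fold higher. With a floor of 6.02 on the mean of both arrays, chosen after seeing the data, both high values were lower. The running median was then 1.10 at VPS13A, 1.36 at GNAQ and CEP78, 0.94 at TUT7 and 0.58 at DAPK1. Its highest value on the chromosome, 1.397, then lay on the short arm, at LURAP1L.

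Outward from NAA35 in the middle of the list, the running median stayed at or above 0.5 from QNG1 to CKS2, over 16 genes, with the floor on the brighter array. In this run the members DAPK1, CTSLP8 and S1PR3 pass that floor through PC3CR alone, as does the pseudogene LOC389765, at 5.96 in PC3 and 6.74 in PC3CR. Just before QNG1 the running median was 0.39, at UBQLN1 and GKAP1. Before these it was again at or above 0.5, from C9orf40 to RASEF. QNG1 is therefore where a short dip stopped the run, and raised values did not begin there. The start of the run depended on the setting. With a running median over 11 genes the start moved to LINC00537, over 45 genes, and with the mean of each gene's probe sets it moved to C9orf40, over 29 genes. The end lay between DAPK1 and CKS2 in each setting that kept a floor. A split of the list after CTSLP8 was chosen after the values were seen. It falls directly after the largest difference, so the contrast between its sides is partly built in. Of the 26 members from PCSK5 to CTSLP8, 12 were past 2-fold, with a median of 0.82. Of the 13 from CDK20 to SPTLC1, 2 were (SEMA4D and AUH), with a median of 0.38. The share over all genes was 9.84%. Among members with a mean signal at or above 6.02 the medians were 1.34 for 16 before the split and 0.38 for 8 after it.

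**Figure D3:**
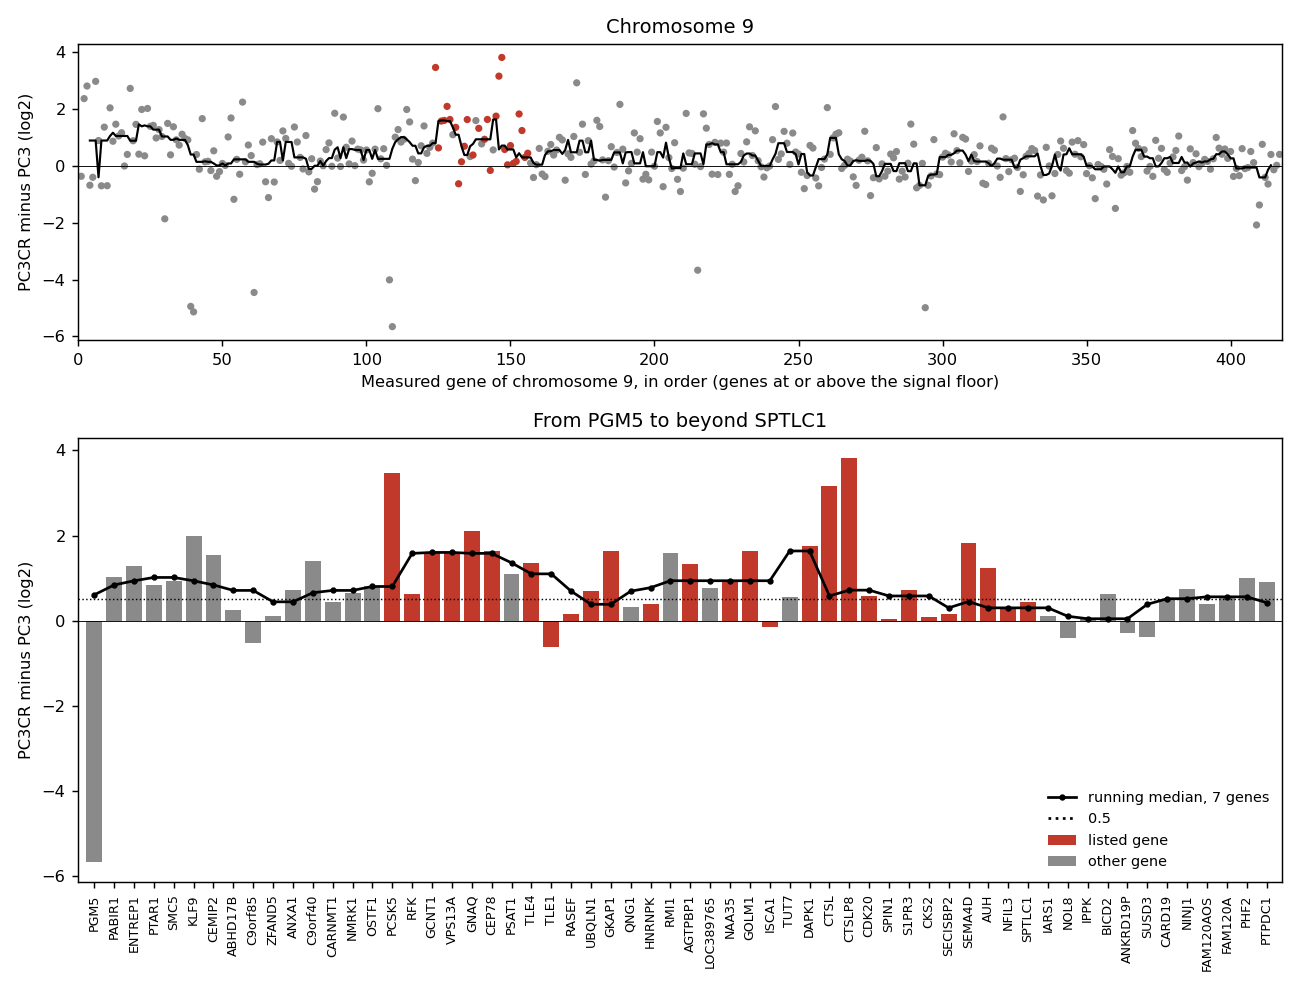
PC3CR minus PC3 (log2, vertical axes) for the genes of chromosome 9 at or above the signal floor, in genomic order from the end of the short arm. The upper panel shows all 417 genes as points, and the lower panel shows the genes from PGM5 to beyond SPTLC1 as bars. Listed genes are red and other genes grey, the black line is the running median over 7 genes, and the dotted line marks 0.5. The running median is 1.60 at GCNT1 and VPS13A and 1.64 at TUT7 and DAPK1, and between CEP78 and TUT7 it ranges from 0.39 to 1.36. Genes that pass the floor through PC3CR alone, members and others, bias it upward.

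Other stretches of chromosome 9 had raised values too. On the short arm, up to IGFBPL1, 205 genes were measured and 100 had a mean signal at or above 6.02, with a median of 0.40 and 73 above 0. The running median reached 1.47 there, at LURAP1L, with the floor on the brighter array. Beyond SPTLC1 to the end of the long arm, 449 genes were measured and 271 had such a signal, with a median of 0.16 and 165 above 0. In the interval itself, the 30 genes with such a signal had a median of 0.71, and 28 were above 0. The adjoining stretch from PGM5 to the gene before PCSK5 was not lower. Its 15 genes with such a signal had a median of 0.80, and 13 were above 0. Over all genes at that level the median was 0.09, and 54.7% were above 0. The differences between these stretches were not tested.

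Relatives of the members outside the interval lay on both sides of 0. Of 62 such genes of the same families 58 were measured, with a median of 0.02. Past 2-fold, 10 were higher in PC3CR and 5 lower, against 9.84% and 6.72% of all genes. As the mean of probe sets 6 were higher, against 6.92% of all genes, and TEF and SPTLC2 came within 2-fold. Of the 4 cathepsins read with CTSL, 3 were higher. CTSV, which lies further along chromosome 9, was at 8.55 and 10.15, a difference of 1.61. CTSK was at 6.13 and 7.69, a difference of 1.56, and CTSB at 10.86 and 11.87, a difference of 1.01, and its 5 probe sets averaged 0.85. CTSS differed by -0.14. For PCSK5, the other convertases FURIN, PCSK6 and PCSK7 lay between -0.19 and 0.35. For TLE4, the other Groucho genes TLE2, TLE3 and TLE5 lay between -0.20 and 0.33, and for DAPK1, the related kinases DAPK2 and DAPK3 were at 0.25 and -0.37. For VPS13A, VPS13B was at 1.57, VPS13C at 1.49 and VPS13D at -0.54. As the mean of probe sets VPS13B and VPS13C differed by 0.45 and 0.86. GNA11, the other widely expressed alpha subunit of the Gq class, was at 8.20 and 9.20, a difference of 1.001, which came to 0.92 after loess centring. Among the semaphorins of class 4, SEMA4B and SEMA4F differed by 1.65 and 1.47 and the other 3 measured by -0.55 to 0.55. AGBL5, a deglutamylase related to AGTPBP1, differed by 1.11, or 0.97 after loess centring, and the adaptor gene SHC1 by 1.43.

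The relatives that were lower in PC3CR included GCNT2, an enzyme that branches glycan chains, at 8.11 in PC3 and 2.93 in PC3CR. It differed by -5.18, opposite in sign to GCNT1. GADD45A and GADD45B, the stress-inducible relatives of GADD45G, differed by -1.98 and -1.80, from 12.65 to 10.67 and from 11.11 to 9.31, and TEF, a relative of NFIL3, differed by -1.35, though its 4 probe sets averaged -0.33. SPTLC2, the catalytic partner of SPTLC1 in serine palmitoyltransferase, was at 9.51 and 7.94, a difference of -1.58, whereas its 5 probe sets averaged -0.90.

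**Figure D4:**
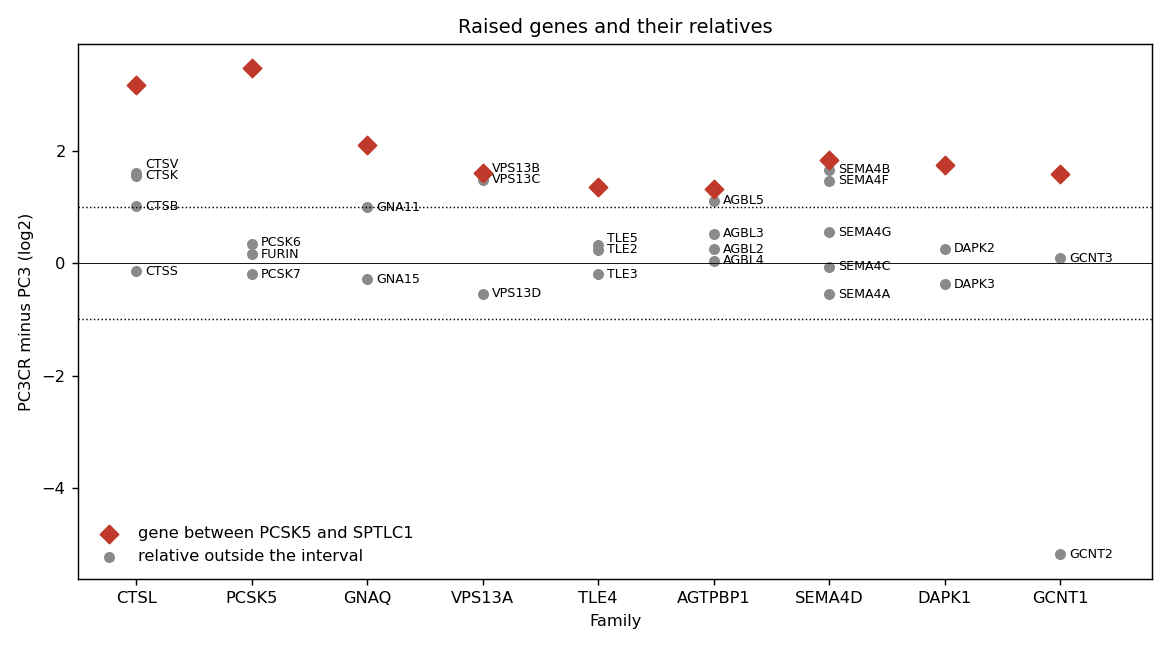
PC3CR minus PC3 (log2, vertical axis) for 9 genes of the interval at least 2-fold higher in PC3CR (red diamonds) and their measured relatives outside it (grey points), with 1 array per cell line. Dotted lines mark 2-fold. For CTSL, 3 of 4 relatives are at least 2-fold higher, whereas the relatives of PCSK5, TLE4 and DAPK1 lie between the dotted lines and GCNT2 lies at -5.18.

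Partners of 4 members in their pathways were read from lists. Serine palmitoyltransferase is a complex of SPTLC1, SPTLC2 and a small subunit. Of 10 other genes of sphingolipid synthesis, 2 were at least 2-fold higher and 1 lower, against 9.84% and 6.72% of all genes. Their median was 0.21. The small subunits differed in direction, SPTSSA at 1.35, from 9.56 to 10.90, and SPTSSB at -1.35, from 5.57 to 4.22, and KDSR, the next enzyme of the pathway, differed by 1.37. Of 7 tubulin glutamylases, which add the glutamates that AGTPBP1 removes, TTLL7 was at 4.30 and 6.41, a difference of 2.11, and the other 6 lay between -0.55 and 0.55. The 3 probe sets of TTLL7 differed by -0.03 to 2.11. Of 11 selenoproteins, whose synthesis needs SECISBP2, SELENOP was at 3.32 and 6.12, a difference of 2.80, and the other 10 lay between -0.52 and 0.83. The 3 probe sets of SELENOP differed by 0.05 to 2.80. For NTRK2, the ligand gene BDNF was at 7.19 and 7.39 and the coreceptor gene NGFR at 3.36 and 4.27, so that NTRK2 and NGFR were dim on both arrays and BDNF was not.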

How the data were processed

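The deposited log2 values, 1 per probe set, were made by the authors with RMA. The submitters' notes name Affymetrix Expression Console 1.4 and Transcriptome Analysis Console 3.1. RMA makes the distributions of both arrays alike, so a difference is relative to the rest of the array. Probe set identifiers matched the U133 Plus 2.0 design, while the methods name another Affymetrix array, the Gene 1.0 ST. Of 54613 probe sets, 41091 had 1 gene symbol in the platform annotation and were used, 1801 had several and 11721 were unnamed here. Symbols were updated by Entrez ID, for 41037 probe sets, and genes were ordered with RefSeq on GRCh38.p14. No build is named for the arrays, so gene coordinates are not printed, apart from those of the promoter sequences, which are RefSeq's.

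The members, role groups, relatives and pathway lists were chosen with earlier results of these data known. All 39 members are named, as are the 5 nearest neighbours on each side, and relatives and other genes of the interval past 2-fold. Others are named as examples, chosen after their values were seen. The 2-fold rule is that of the methods. Alternatives were the mean of probe sets, median centring, loess centring (span 0.4), quantile normalization, floors on signal, other fold thresholds and other widths of the running median. A value counted as moved past 0.1 on the log2 scale, and a count past 1.5 times. The procedure was tested on simulated data in which every gene of a block was raised by the same amount, with little noise. The simulated chromosome had no dips or raised flanks, so the outcome does not show how well the edges are placed here. Tables were handled in pandas 2.3.3 with numpy 2.4.6 under Python 3.11.15, loess came from statsmodels 0.14.6, and plots from matplotlib 3.10.9.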

Additional observations from a re-analysis of the deposited data

How the results depend on the processing

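With the mean of probe sets, after median centring, loess centring or quantile normalization, the median of the 39 genes lay between 0.48 and 0.58 and the number at least 2-fold higher was 13 or 14. VPS13A and GOLM1 came within 2-fold as the mean of their probe sets, at 0.80 and 0.94, and RASEF passed it, at 1.05. No member crossed 2-fold after loess centring or quantile normalization. Without CTSLP8, an alternative chosen after seeing the data, 13 members were past 2-fold and the median was 0.50. With the floor on signal, which members can pass through PC3CR alone, the median of the members was 1.09, and those of the other stretches of chromosome 9 were 0.48 on the short arm, 0.80 on the long arm before PCSK5, 0.69 for the nearest 10 genes before it, 0.25 for the nearest 10 after SPTLC1 and 0.19 for the long arm after it. At 1.5-fold, 18 members were higher and 1 lower (TLE1), against 18% and 13.5% of all genes, and at 3-fold 10 were higher, against 3.82%. Over all probe sets 31 were at least 2-fold higher, from a larger number of units. With the mean of probe sets, 6 relatives were at least 2-fold higher. The edges of the raised stretch enclosed 29 genes with the mean of probe sets, 10 after loess centring, 45 with the running median over 11 genes and 6 without the floor, where dim genes enter. With the floor on the mean of both arrays, also chosen after seeing the data, they enclosed 14, from QNG1 to S1PR3. The cause was not tested in the other cases. Dim genes, near the floor of the array, limit what can be seen at NTRK2, SYK, ROR2, KIF27, PRUNE2 and SLC28A3.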
